A study of Mus musculus with 30 samples.

Results

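The genes of antibody-producing cells were followed across the series as a set of 10 of the 56951 gene symbols in the deposited tables, each found by its symbol. They were the kappa and lambda light chain constant genes Igkc and Iglc2, the heavy chain constant genes Ighm, Igha, Ighg2b and Ighg2c, the joining chain Jchain, the B cell receptor subunits Cd79a and Cd79b, and Mzb1. These genes were selected on their read counts in the LD and ADV libraries, with the difference between the groups already known, so their LD and ADV values are given as a description. Calls quoted for them come from a fit across all genes and are not read as a test of the set. RNA-seq had been performed on gastrocnemius muscle, collected together with plantaris, of wild-type C57BL/6J male mice housed singly with a running wheel. All mice had first been kept on light-dark cycles and then in constant darkness. The LD group (n = 14) then stayed on light-dark cycles for 64 weeks, whereas the ADV group (n = 16) had its light schedule advanced by 8 h every 4 days for the same 64 weeks. Each library came from 1 mouse, and mice are named below by their group and label number. No gene had been altered in any mouse and no sort or gate was used, so a lower level in bulk muscle cannot tell fewer cells of a type from less RNA per cell.

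Antibodies are built from paired heavy and light chains. A developing B cell joins a V, a D and a J segment at the heavy chain locus and a V and a J segment at a light chain locus, and the rearranged exon is then spliced to a constant region. Mature B cells carry the product on the membrane with CD79A and CD79B, which signal for the receptor. Plasma cells secrete it in bulk, and the joining chain links IgM and IgA into polymers. Skeletal muscle holds few such cells, mostly in its connective tissue and blood vessels.

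The libraries held 18875468.5 to 28512674 exon reads (median 22036588.5), where each mate of a pair counts as part of 1 read. The tissue label was matched by fiber genes, and the skeletal actin gene Acta1 averaged 16866 FPKM in LD and 17480 FPKM in ADV (reads per kilobase of exon, scaled to the library total). The defining B cell markers were near 0. Ms4a1 averaged 1.63 reads per library and Cr2 0.48, and 13 of the 18 listed B cell genes averaged under 3 reads. Genes with a mean over 20 reads and over 0.5 FPKM were tested (12030 genes), and a gene was called where edgeR's quasi-likelihood test gave an FDR under 0.05 with a fold change above 1.3. Only Igkc, Ighm and Ighg2c of the 10 genes passed that filter.

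Reads from V segments were used as a second readout of the same rearranged transcripts, because the choice of genes had not used them. The pair of V segments shown here led the V reads in 2 of the 3 libraries richest in Igkc, and it is known from B-1 B cells whose antibodies bind phosphatidylcholine. Shown are the last 120 bases of each V exon (GRCm39), with the codon of the last in-frame cysteine in capitals. Ighv11-2 lies on the minus strand at chr12:114011861-114011980 and Igkv14-126 on the plus strand at chr6:67873507-67873626.
Ighv11-2: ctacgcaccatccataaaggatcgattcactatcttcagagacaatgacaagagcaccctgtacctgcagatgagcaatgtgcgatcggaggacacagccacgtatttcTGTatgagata
Igkv14-126: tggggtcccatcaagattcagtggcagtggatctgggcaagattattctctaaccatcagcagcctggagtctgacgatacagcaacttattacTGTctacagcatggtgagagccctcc

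The heavy J segments form the end of the rearranged heavy chain exon and lie upstream of Ighm on chromosome 12, minus strand. Whether the reads on these segments came from rearranged transcripts was not tested. The capitals mark the TGGGG found in each, which holds the tryptophan codon and the start of the glycine codon of the conserved J motif. Summed over 30 libraries, Ighj1 (chr12:113393401-113393453) had 53 reads, Ighj2 (chr12:113393088-113393135) 38.5, Ighj3 (chr12:113392705-113392752) 50.5 and Ighj4 (chr12:113392134-113392187) 57.5.
Ighj1: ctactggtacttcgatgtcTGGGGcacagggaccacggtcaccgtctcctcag
Ighj2: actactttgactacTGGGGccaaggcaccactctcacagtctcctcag
Ighj3: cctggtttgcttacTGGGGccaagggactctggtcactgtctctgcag
Ighj4: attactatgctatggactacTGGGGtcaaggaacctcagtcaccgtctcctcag

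Igkc, the constant region of kappa light chains and hence of most mouse antibodies, was carried by a few LD mice. It is a single exon at chr6:70703419-70703950 on the plus strand. LD mouse 30 had 733.5 reads, LD mouse 33 had 581.5 and LD mouse 23 had 331. Those 3 libraries held 63.2% of the 2605 Igkc reads of the series. The next libraries were ADV mouse 33 with 107 reads, LD mouse 32 with 105.5 and ADV mouse 23 with 102.5. No read fell on Igkc in LD mouse 22, which allows up to 3 reads, or 0.240 FPKM, by counting error alone.

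In FPKM, Igkc ran from 0 to 61.5 in LD with a median of 2.98, and from 0.469 to 8.82 in ADV with a median of 2.12. The groups overlapped. In all, 4 of 14 LD mice exceeded the highest ADV mouse, 1 LD mouse lay below the lowest, and 4 of 16 ADV mice exceeded the LD median. The mean was 11.4 ± 18.4 FPKM in LD (SD, n = 14) and 2.76 ± 2.49 in ADV (SD, n = 16). The ADV mean was thus 0.244 of the LD mean while the ADV median was 0.713 of the LD median. Without mice 23, 30 and 33 the LD mean was 2.86 ± 3.01 FPKM (SD, n = 11), beside 2.76 in ADV.

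**Figure D1:**
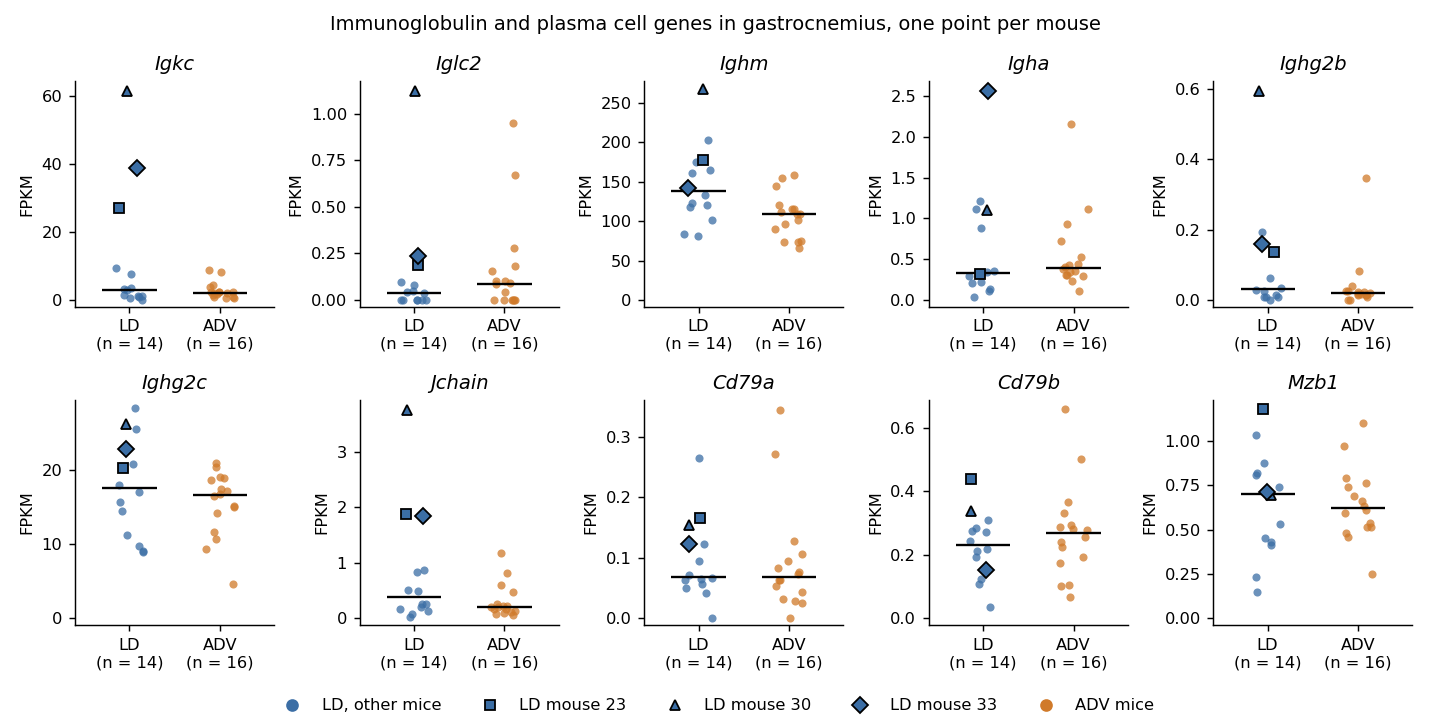
FPKM of each of the 10 genes in every mouse (vertical axes, 1 scale per gene) in the LD and ADV groups, with horizontal lines at the medians and separate symbols for LD mice 23, 30 and 33. These 3 mice stand above all others for Igkc, at 26.998 to 61.5 FPKM, and for Jchain, whereas Ighm and Ighg2c are spread over both whole groups.

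Jchain, which polymerizes IgM and IgA, followed Igkc. It has 4 exons at chr5:88668371-88675750 on the minus strand. The same 3 libraries led, with 117 reads in LD mouse 30, 72 in LD mouse 33 and 60 in LD mouse 23, together 45.8% of its 544 reads. LD mice ran from 0.030 to 3.76 FPKM with a median of 0.381, and ADV mice from 0.066 to 1.19 FPKM with a median of 0.206. There were 3 LD mice that lay above all ADV mice and 1 that lay below all of them. The means were 0.809 ± 1.04 FPKM in LD (SD, n = 14) and 0.313 ± 0.309 in ADV (SD, n = 16), and the LD mean without mice 23, 30 and 33 was 0.350 ± 0.289 (SD, n = 11).

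Ighm, the constant region of IgM, behaved differently. It has 4 exons at chr12:113384361-113386350 on the minus strand. Every library held 2303.5 to 8936.5 Ighm reads, and the 3 libraries with the most held 16.1% of the 135875.5. At a mean of 125 FPKM Ighm ranked 360 among the 12030 tested genes. LD mice ran from 81.2 to 268 FPKM with a median of 138, and ADV mice from 66.3 to 158 FPKM with a median of 109. The groups overlapped, but 6 of 14 LD mice exceeded every ADV mouse and 3 of 16 ADV mice exceeded the LD median. The means were 147 ± 50.0 FPKM in LD (SD, n = 14) and 107 ± 28.3 in ADV (SD, n = 16), and without mice 23, 30 and 33 the LD mean was 133 ± 38.6 (SD, n = 11).

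RNA over the constant exons of Ighm and of Igkc was thus present in very unequal amounts per exon length. Whether the Ighm reads came from rearranged heavy chain transcripts was not tested. The ratio of Ighm to Igkc FPKM was 3.64 in LD mouse 33, 4.35 in LD mouse 30 and 6.59 in LD mouse 23. In the other libraries with Igkc reads it ranged from 8.82 in ADV mouse 33 to 307 in ADV mouse 32. LD mouse 22, with no Igkc read, had 2932 Ighm reads.

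Ighg2c, the IgG2c constant gene of the C57BL/6 strain, shared the spread of Ighm. It has 6 exons at chr12:113248945-113252552 on the minus strand. LD mice ran from 8.92 to 28.3 FPKM with a median of 17.5, and ADV mice from 4.59 to 21.02 FPKM with a median of 16.6. The means were 17.7 ± 6.57 FPKM in LD (SD, n = 14) and 15.4 ± 4.44 in ADV (SD, n = 16). Its largest counts were 878 reads in LD mouse 36, 768.5 in LD mouse 33 and 743.5 in LD mouse 28, and the groups overlapped over most of their range.

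Ighg2b, a neighbouring IgG gene on chromosome 12 (chr12:113266585-113271553, minus strand), had only 127.5 reads in all against 14562 for Ighg2c. LD mouse 30 held 34 of them, ADV mouse 22 held 22 and LD mouse 33 held 11.5. Its medians were 0.030 FPKM in LD and 0.019 FPKM in ADV. The first constant exons of both genes are shown because they are similar, with the 36 bases that differ in capitals. They were 87.6% identical over 291 bases, in GRCm39 at chr12:113252262-113252552 for Ighg2c and chr12:113271263-113271553 for Ighg2b, both on the minus strand.
Ighg2c: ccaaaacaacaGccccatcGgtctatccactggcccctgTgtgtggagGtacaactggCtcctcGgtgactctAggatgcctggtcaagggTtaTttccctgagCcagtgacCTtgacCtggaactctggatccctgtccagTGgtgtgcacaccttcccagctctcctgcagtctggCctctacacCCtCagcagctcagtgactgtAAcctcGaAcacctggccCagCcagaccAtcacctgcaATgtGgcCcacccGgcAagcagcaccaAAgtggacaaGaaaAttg
Ighg2b: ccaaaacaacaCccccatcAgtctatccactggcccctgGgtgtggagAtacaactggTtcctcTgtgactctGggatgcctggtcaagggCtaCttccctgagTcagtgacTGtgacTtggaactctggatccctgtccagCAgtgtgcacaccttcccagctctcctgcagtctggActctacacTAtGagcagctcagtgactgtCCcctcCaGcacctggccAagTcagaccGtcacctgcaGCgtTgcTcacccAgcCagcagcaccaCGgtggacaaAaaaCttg
Ighg1 was 88.0% and Ighg3 78.4% identical to the Ighg2c exon. Ighg1 had 65 reads, of which 52.5 came from LD mouse 33, and its sum in the 16 ADV mice came from 2 libraries. Whether reads were shared among such copies was not tested.

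Igha, the IgA constant gene (chr12:113222322-113223856, minus strand), led in LD mouse 33 with 78.5 reads and in ADV mouse 34 with 64.5. Its range was 0.039 to 2.56 FPKM in LD (median 0.327) and 0.105 to 2.15 FPKM in ADV (median 0.386). LD mouse 30, the highest for Igkc, had 27 Igha reads. Among the mice rich in Igkc, the most Ighg1 and Igha reads were thus in LD mouse 33 and the most Ighg2b reads in LD mouse 30. Ighd, the IgD constant gene next to Ighm, had 1 to 18.5 reads per library and was highest in LD mouse 27.

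Iglc2, a lambda light chain constant gene (chr16:19017146-19017603, minus strand), had 50 reads in all. LD mouse 30 held 11.5, ADV mouse 28 held 10 and ADV mouse 35 held 8, and 6 LD and 6 ADV libraries had none. The lambda V rows were highest in the same 3 libraries, at 27, 10.5 and 7 reads. Iglc1 added 18.5 reads in LD mouse 30 and at most 4 in any other library. Iglc2 was 95.4% identical to Iglc3, whose own sum was 22.5 reads.

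The B cell receptor subunits and Mzb1 had few reads. Cd79a (chr7:24596806-24601622, plus strand) had 0 to 12 reads per library and a median of 0.069 FPKM in both groups. With a median of 2.5 reads it was not tested against the others, and as a description its Spearman rho with Igkc was 0.550 over 30 mice (r 0.477), 0.748 within LD and 0.356 within ADV. Cd79b (chr11:106202170-106205355, minus strand) had 1 to 20.5 reads, with a mean of 0.229 ± 0.104 FPKM in LD (SD, n = 14) and 0.273 ± 0.149 in ADV (SD, n = 16). Mzb1, an endoplasmic reticulum protein that helps fold IgM, lies on chromosome 18 and had 3 to 29 reads. Its mean was 0.650 ± 0.295 FPKM in LD (SD, n = 14) and 0.645 ± 0.204 in ADV (SD, n = 16). Of the 3 mice richest in Igkc, LD mice 30 and 33 had Mzb1 values near the LD median, at 0.694 and 0.715 FPKM. LD mouse 23 had 1.183 FPKM, the highest of the 30 mice. Over the 30 mice Mzb1 and Igkc had rho 0.034 (permutation p = 0.856, adjusted p = 0.939). In the annotation 61.7% of the Mzb1 exon bases overlap the protein-coding gene Gm50318 on the same strand, so its reads cannot be assigned to Mzb1 alone.

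By mean FPKM over the 30 libraries the order was Ighm at 125, Ighg2c at 16.5, Igkc at 6.77, Mzb1 at 0.647, Igha at 0.596, Jchain at 0.545, Cd79b at 0.252, Iglc2 at 0.150, Cd79a at 0.094 and Ighg2b at 0.070. The neighbours Mzb1, Igha and Jchain differed in their means by less than the SD of any of them within LD, as did each neighbouring pair of Iglc2, Cd79a and Ighg2b. The order of Ighg2c and Igkc held in the group medians but was reversed in LD mice 23, 30 and 33.

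Of the 3 genes that could be tested, Igkc and Ighm were called, both lower in ADV, beside 2.09% of all tested genes called (0.648% lower and 1.45% higher in ADV). Since the contrast had chosen the genes, nothing is read from that count. The fitted log2 fold change (ADV minus LD) was -2.07 ± 0.62 for Igkc (SE), -0.47 ± 0.15 for Ighm and -0.22 ± 0.18 for Ighg2c. With limma on log2(FPKM + 0.1) it was -0.66 ± 0.66 for Igkc and -0.43 ± 0.15 for Ighm, with log2(FPKM + 1) -0.72 ± 0.48 and -0.42 ± 0.15, and neither gene was called. The median of all tested genes was 0.0029. Igkc had the highest biological coefficient of variation of the 12030 genes in that fit, at 1.13, where Ighg2c at 0.349 ranked 415 and Ighm at 0.282 ranked 815.

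Leaving out single mice showed which libraries the values rested on. The Igkc value was -1.48 without LD mouse 30, and the call was lost without LD mouse 30 or LD mouse 33. Without LD mice 23, 30 and 33 together, an alternative chosen after their values were seen, Igkc was at -0.05 ± 0.47 (SE) and Ighm at -0.33 ± 0.14, and neither was called. Ighm stayed between -0.52 and -0.38 over the 30 fits that left out 1 mouse each, and its call was lost in 10 of them: without LD mouse 23, 27, 28, 30, 35 or 36, or without ADV mouse 24, 25, 33 or 36.

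With the filter lowered to a mean of 1 read, all 10 genes were fitted among 20084 and only Igkc was called. Jchain was then at -1.39 ± 0.49 (SE) and Ighg2b at -1.15 ± 0.64. Igha was at -0.20 ± 0.42, Cd79a at -0.08 ± 0.39, Mzb1 at 0.00 ± 0.20, Cd79b at 0.21 ± 0.27 and Iglc2 at 0.39 ± 0.72.

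**Figure D2:**
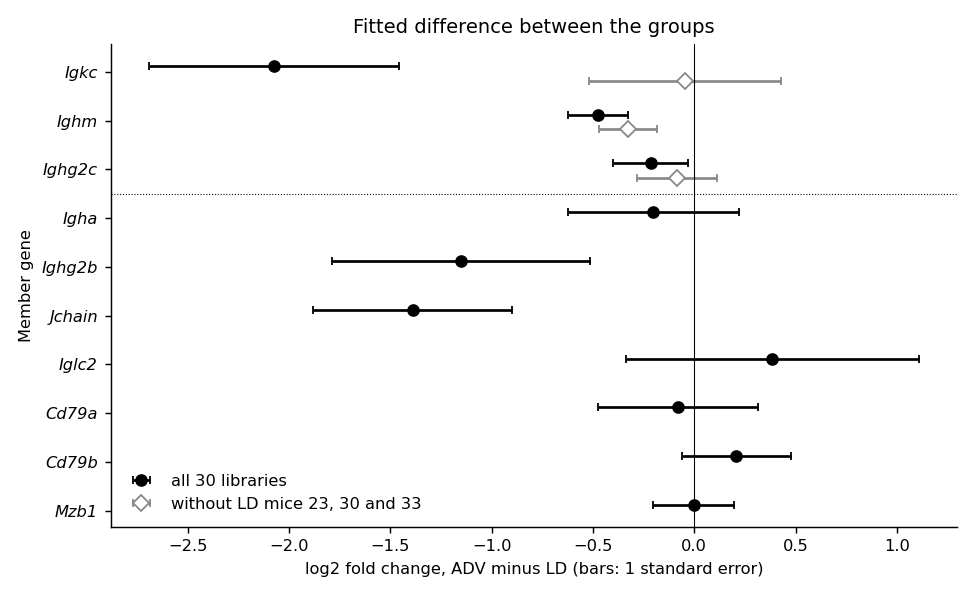
Fitted log2 fold change, ADV minus LD, of each of the 10 genes (horizontal axis, bars 1 SE), for all 30 libraries (filled) and, for the 3 genes above the dotted line that passed the study's filter, without LD mice 23, 30 and 33 (open). Igkc moves from -2.07 to -0.05 and Ighm from -0.47 to -0.33.

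Whether heavy, light and joining chains went together was asked across mice, with two-sided permutation tests (100000 resamples, smallest p 1e-05) and Benjamini-Hochberg adjustment over the 45 pairs of genes. The 21 pairs of the 7 genes with a median of at least 3 reads were read. Igkc and Jchain rose together over the 30 mice, with Spearman rho 0.687 (permutation p = 5e-05, adjusted p = 0.00112) and Pearson r 0.820 on log2(FPKM + 0.1) (permutation p = 1e-05, adjusted p = 0.00045). Without LD mice 30 and 33, r was 0.718. Within the LD group rho was 0.851 (permutation test, adjusted p = 0.0121), and within the ADV group it was 0.494 (permutation test, adjusted p = 0.440).

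Ighm and Ighg2c formed the other pair. Their rho was 0.743 (permutation p = 2e-05, adjusted p = 0.00090) and their r 0.743 (permutation p = 2e-05, adjusted p = 0.00045), with r = 0.751 once LD mice 30 and 27 were left out. Within LD rho was 0.789 (permutation test, adjusted p = 0.0304) and within ADV 0.709 (permutation test, adjusted p = 0.138). Igha also went with Ighg2c, at rho 0.545 (permutation p = 0.00202, adjusted p = 0.0227) and r 0.498 (permutation p = 0.00481, adjusted p = 0.0291). Without LD mouse 33 and ADV mouse 34, r was 0.502 (permutation test, adjusted p = 0.071) and rho 0.540 (permutation test, adjusted p = 0.0511). Within LD rho was 0.644 (permutation test, adjusted p = 0.107) and within ADV 0.532 (permutation test, adjusted p = 0.41).

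Between Igkc or Jchain and a heavy chain no relation passed the test by rank, but Igha passed by r. Igkc and Igha had rho 0.410 (permutation p = 0.0254, adjusted p = 0.164) and r 0.521 (permutation p = 0.00332, adjusted p = 0.0249), and r was 0.356 without LD mice 30 and 33. Ighg2b had too few reads to be tested, and as a description its rho with Igkc was 0.492 (r 0.639). Igkc and Ighm had rho 0.075 (permutation p = 0.690, adjusted p = 0.796) and r 0.315 (permutation p = 0.0915, adjusted p = 0.240), with a 95% interval of r from -0.051 to 0.606. Without LD mice 30 and 33, r was 0.084, and rho was 0.371 within LD and -0.282 within ADV. Igkc and Ighg2c had rho 0.029 (permutation p = 0.880, adjusted p = 0.943) and r 0.182 (permutation p = 0.332, adjusted p = 0.523). Igkc and Jchain therefore ranked the mice alike, as did Ighm and Ighg2c, but Igkc and Ighm showed no relation beyond the spread between mice. The interval for Igkc and Ighm leaves room for a moderate positive relation.

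**Figure D3:**
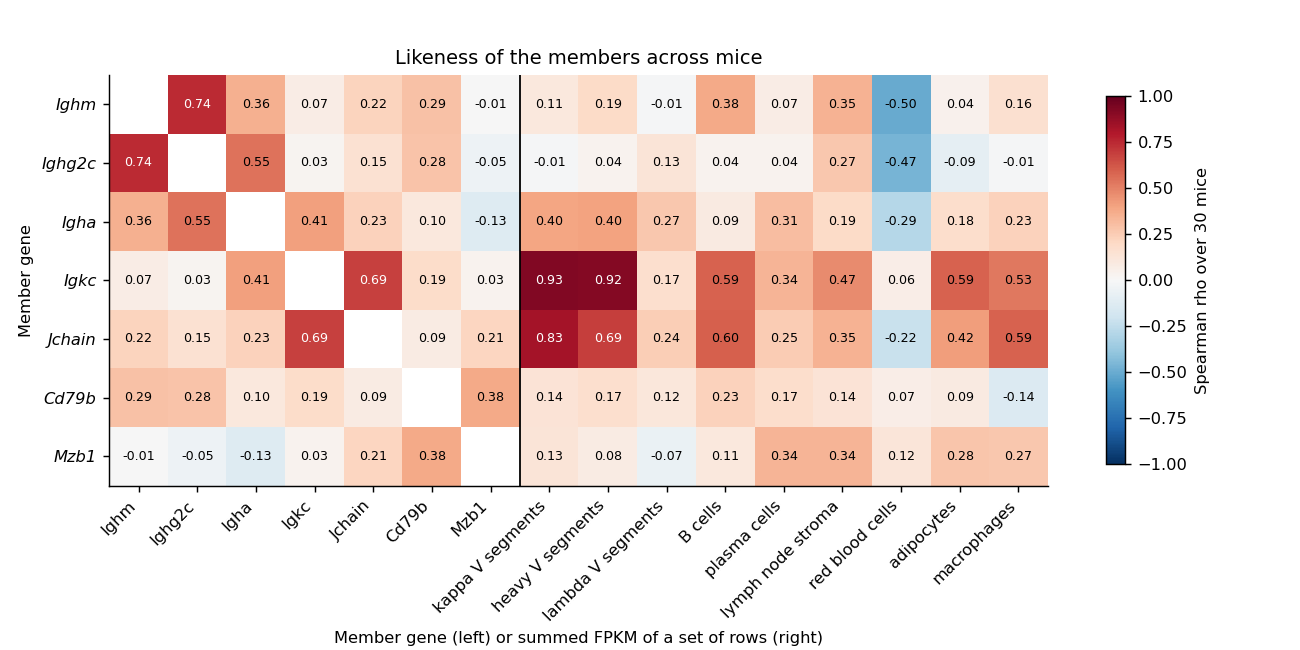
Spearman rho over the 30 mice between the 7 genes with a median of at least 3 reads (rows) and, left of the line, the same genes or, right of the line, the summed FPKM of V segments and of marker gene lists. Ighm and Ighg2c share 1 warm block (0.743), and Igkc and Jchain another (0.687), which extends to the kappa V segments (0.926 and 0.831).

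V segments went with Igkc and Jchain. The tables held 160 kappa V rows, 82 of them with reads (1731.5 in all), and 183 heavy V rows, 74 with reads (813 in all). LD mouse 30 had 444.5 kappa V and 222 heavy V reads, LD mouse 33 had 397.5 and 191.5, and LD mouse 23 had 242.5 and 104. No other mouse exceeded 75.5 kappa V or 30.5 heavy V reads. Summed kappa V FPKM was 10.98 ± 16.9 in LD (SD, n = 14) and 2.54 ± 2.45 in ADV (SD, n = 16), and 3.00 ± 3.16 in LD without those 3 mice (SD, n = 11). Heavy V FPKM was 5.03 ± 8.01 in LD (SD, n = 14), 1.18 ± 0.977 in ADV (SD, n = 16) and 1.29 ± 1.21 in LD without them (SD, n = 11).

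Over a family of 63 relations between the 7 genes and sums of V segments or marker genes, Igkc followed the kappa V segments with rho 0.926 (permutation p = 1e-05, adjusted p = 0.00021) and r 0.957 (permutation p = 1e-05, adjusted p = 0.000126). Without LD mice 30 and 33, r was 0.933, and rho was 0.938 within LD and 0.879 within ADV. Igkc also followed the heavy V segments, with rho 0.915 (permutation p = 1e-05, adjusted p = 0.00021), r 0.927 (permutation p = 1e-05, adjusted p = 0.000126) and r 0.884 without LD mice 30 and 33. The Spearman rho was 0.978 within LD and 0.800 within ADV. Igkc thus tracked the variable part of both chains in each group taken alone.

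Ighm did not track the heavy V segments beyond the spread. The Spearman rho was 0.192 (permutation p = 0.307, adjusted p = 0.569) and r 0.379 (permutation p = 0.0394, adjusted p = 0.124), with r = 0.190 without LD mice 30 and 27. The Spearman rho was 0.402 within LD and -0.044 within ADV. Per exon length, summed kappa V FPKM was a median of 0.957 times the Igkc FPKM over the 29 libraries with Igkc reads. Summed heavy V FPKM was a median of 0.007 times the summed heavy constant FPKM, and it exceeded 0.05 times in 3 libraries, LD mice 33, 30 and 23. LD mouse 33 had the highest such ratio, 0.112.

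**Figure D4:**
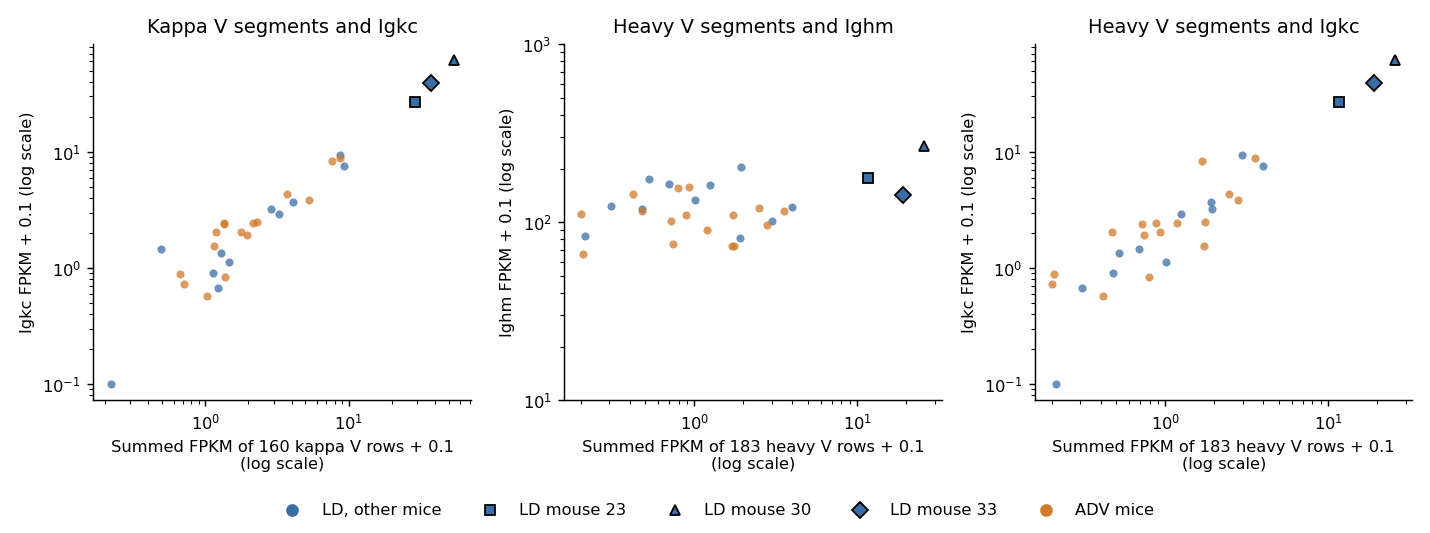
Summed FPKM of the V segment rows (horizontal) against FPKM of the constant gene (vertical) in each of the 30 mice, both plus 0.1 on log axes. Igkc rises with kappa V (left) and with heavy V (right) in both groups, while Ighm (middle) stays between 66.3 and 268 FPKM from the lowest to the highest heavy V value.

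The leading V segments differed among the 3 LD mice, which also had segments in common. In LD mouse 30, 41 kappa V rows had reads and Igkv14-126 led with 89 of 444.5. In LD mouse 23, 17 rows had reads and Igkv14-126 led with 109.5 of 242.5. LD mouse 33 had 31 such rows, led by Igkv17-121 with 76.5, and only 0.5 reads of Igkv14-126. Igkv17-121 had 74 reads in LD mouse 23 and 5.5 in LD mouse 30. Igkv3-2, the second most abundant over the series with 185 reads, had 65 reads in LD mouse 33, 53.5 in LD mouse 30 and 12.5 in LD mouse 23. No library outside these 3 had more than 8 Igkv14-126 reads.

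The single leading heavy V segment was likewise the same in LD mice 30 and 23 and another in LD mouse 33. The segments named here were chosen after their values were seen. Ighv11-2, whose sequence is printed above with that of Igkv14-126, led in LD mouse 30 with 56.5 of 222 reads and in LD mouse 23 with 42.5 of 104, but had 1 read in LD mouse 33. There Ighv1-53 led with 45 of 191.5 and Ighv1-54 followed with 37.5. Ighv1-26 was high in both LD mouse 30, with 27.5 reads, and LD mouse 33, with 28.5. LD mice 30 and 33 shared 16 kappa V rows with reads, 39.0% of those in LD mouse 30 and 51.6% of those in LD mouse 33. LD mice 33 and 23 shared 7, or 22.6% and 41.2%. Of the heavy V rows with reads, LD mice 30 and 33 shared 15, or 39.5% and 62.5%. LD mice 30 and 23 shared 9, or 23.7% and 56.2%, and LD mice 33 and 23 shared 7, or 29.2% and 43.8%. These shares were not set against those of other pairs of libraries. The top 3 kappa V rows made up 44.99% of such reads in LD mouse 30, 49.6% in LD mouse 33 and 81.0% in LD mouse 23, at very different depths of V reads.

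Among ADV mice the most kappa V reads were in mouse 33, with 68.5 reads on 22 rows, and mouse 23, with 68 reads on 12 rows. In ADV mouse 23 Igkv4-57-1 took 34.5 of the reads and Ighv3-6 took 12.5 of 26.5 heavy V reads. In ADV mouse 34 Igkv1-110 took 21.5 of 38 kappa V reads and Ighv5-9-1 took 18 of 26 heavy V reads. These segments too were chosen after their values were seen. With so few reads a leading segment cannot be ranked firmly, and V segments with near-identical copies lose reads when poorly placed reads are removed.

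**Figure D5:**
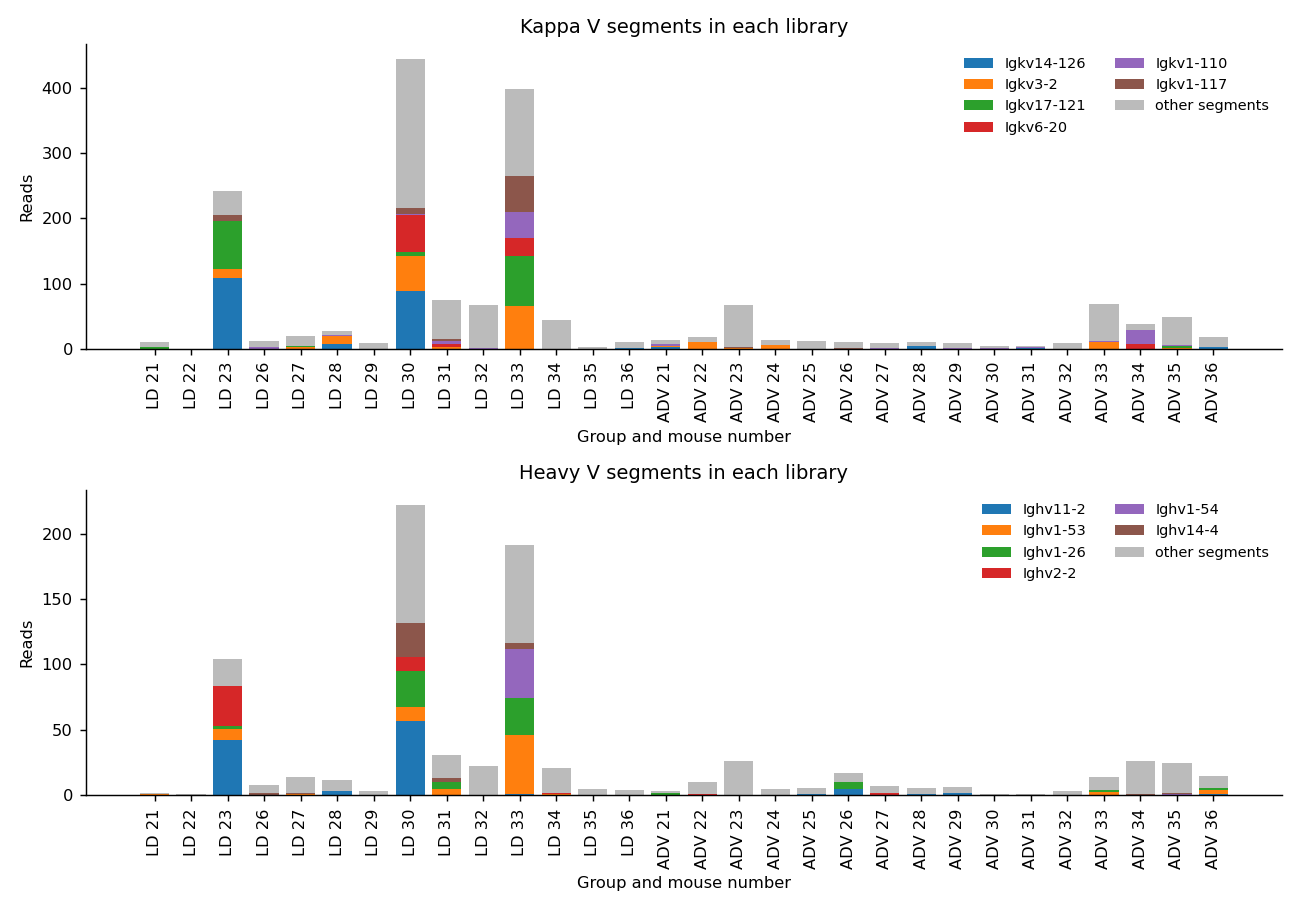
Reads on kappa V (top) and heavy V (bottom) segments in each library, stacked, with the 6 segments that have the most reads in the series in colour and all others in grey. LD mice 23, 30 and 33 hold most V reads. Igkv14-126 and Ighv11-2 are tall in LD mice 23 and 30 and nearly absent in LD mouse 33, which shares other segments with them.

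Rows between the heavy J segments and Ighm had reads in every library, whereas the heavy J rows had reads in 27 of 30. These rows were chosen after their values were seen. Gm56536, annotated as a long noncoding RNA, lies 3563 bases upstream of the Ighm row and had 705.5 reads in 30 of 30 libraries. Short rows annotated as miRNA, Gm54570 to Gm54573, lie 1915 to 2420 bases upstream and 3 of the 4 overlap a neighbour. As a description over 30 mice, Spearman rho with Ighm was 0.633 for Gm56536 and 0.663 to 0.764 for the short rows, whereas with Igkc it was -0.131 to 0.327. The summed heavy J rows had rho 0.809 with Igkc and 0.071 with Ighm. All these rows share libraries and, on the same strand, may share transcripts with Ighm.

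The tested genes whose pattern over the 30 mice was most like Igkc by Spearman rho were C1ra (0.702), Dpt (0.695), Dcn (0.687), H2-Aa (0.681) and Imp3 (0.666). C1ra encodes a complement protease, Dpt and Dcn are matrix proteins of connective tissue, and H2-Aa is an MHC class II chain. For Ighm they were Xrcc5 (0.815), Kmt5a (0.801), Prkag3 (0.797), Tmod1 (0.754) and Pik3cd (0.753). Xrcc5 is a DNA repair protein, Prkag3 an AMPK subunit of muscle and Tmod1 a cap of actin filaments. The 95th percentile of rho over all tested genes was 0.389 for Igkc and 0.424 for Ighm, and Ighm itself ranked below these genes for Igkc, at 0.075.

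Sums of several marker lists moved with Igkc over the 30 mice, but no such relation passed within the ADV group. The B cell list summed to 2.14 to 5.31 FPKM in LD and 1.83 to 4.29 in ADV. LD mouse 30 was the highest of the 30 mice, LD mouse 33 the third and LD mouse 23 the fourth. Over the 30 mice Igkc followed it with rho 0.589 (permutation p = 0.00078, adjusted p = 0.00661) and r 0.677 (permutation p = 5e-05), and r was 0.486 without LD mice 30 and 33. Within LD rho was 0.785 (permutation test, adjusted p = 0.0153) and within ADV 0.379 (permutation test, adjusted p = 0.513). The 2 listed genes tested, the B cell adaptor Blnk and the leukocyte tetraspanin Cd37, were not called. Cd37 averaged 1.22 ± 0.622 FPKM in LD (SD, n = 14) and 0.962 ± 0.224 in ADV (SD, n = 16).

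The sum of the plasma cell list was 66.6 to 79.9 FPKM in LD and 66.1 to 88.1 in ADV, mostly from the secretory pathway genes Xbp1, Txndc5 and Sec11c, which many tissues use. Tnfrsf17, a defining plasma cell receptor, averaged 2.00 reads and Derl3 1.42. Of 15 genes 7 were tested and none was called, and their median difference was 0.02 on the log2 scale. Igkc and this sum had rho 0.338 (permutation p = 0.0672, adjusted p = 0.202) and r 0.205 (permutation p = 0.277).

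Macrophage and MHC class II genes were highest in LD mice 33 and 30. The 12 macrophage genes summed to 95.9 to 248 FPKM in LD and 84.5 to 175 in ADV, with 248 in LD mouse 33 and 215 in LD mouse 30. The 9 MHC class II genes summed to 51.8 to 348 FPKM in LD and 58.9 to 150 in ADV, and LD mice 33, 30 and 23 held the 3 highest values, 348, 224 and 158. All 12 macrophage and 6 of the MHC class II genes were tested and none was called. Their median fold changes were -0.26 and -0.41 on the log2 scale, with 11 of 12 and 6 of 6 genes below 0. The median mouse differed less. The macrophage sum had a median of 128 FPKM in LD and 118 in ADV, and 6 of 16 ADV mice exceeded the LD median. The MHC class II sum had a median of 91.1 FPKM in LD and 93.0 in ADV, and 9 of 16 ADV mice exceeded the LD median. Lyz2, the lysozyme of macrophages, averaged 55.4 ± 18.2 FPKM in LD (SD, n = 14) and 46.1 ± 11.3 in ADV (SD, n = 16). Igkc followed the macrophage sum with rho 0.526 (permutation p = 0.00311, adjusted p = 0.0218) and r 0.601 (permutation p = 0.00040), and r fell to 0.344 without LD mice 30 and 33. Within LD rho was 0.811 (permutation test, adjusted p = 0.00958) and within ADV 0.156 (permutation test, adjusted p = 0.773).

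The lymph node list gave 3.85 to 13.3 FPKM in LD and 2.61 to 9.36 in ADV, again with LD mice 30, 23 and 33 highest, at 13.3, 11.7 and 11.2. Most of it was Ccl21a, a chemokine of lymphatic vessels and lymph node stroma, and Cxcl13, which draws B cells into follicles. The 2 genes ranked these mice differently. In LD mice 30, 23 and 33, Ccl21a ranked 8, 1 and 2 of 30, and Cxcl13 ranked 1, 14 and 2. Neither was called, at -0.38 ± 0.18 and -0.81 ± 0.40 (log2 fold change, SE). The defining genes Glycam1 and Madcam1 had no read in any library. Igkc followed this sum with rho 0.474 (permutation p = 0.00853, adjusted p = 0.0489) and r 0.520 (permutation p = 0.00298), and r was 0.318 without LD mice 30 and 33. Within LD rho was 0.679 (permutation test, adjusted p = 0.0661) and within ADV 0.247 (permutation test, adjusted p = 0.678). The part of these markers in the Igkc and Jchain values was not tested.

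Hemoglobin and other red blood cell genes did not rank the mice as Igkc did. The part of blood in the Igkc values was not tested. The red blood cell list summed to 70.1 to 136 FPKM in LD and 85.3 to 146 in ADV, and LD mice 30, 33 and 23 ranked 17, 25 and 13 of 30. The Spearman rho with Igkc was 0.064 (permutation p = 0.738, adjusted p = 0.830) and r 0.014 (permutation p = 0.942). Ighm was lower where this sum was higher, with rho -0.503 (permutation p = 0.00500, adjusted p = 0.0315) and r -0.407 (permutation p = 0.0257), but rho was -0.310 within LD and -0.182 within ADV and r was -0.386 without LD mice 30 and 27.

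In the annotation 97.9% of the Igkc exon is overlapped on the opposite strand by the long noncoding RNA Gm68839. The authors describe the sequencing as stranded, but the sources used here do not say whether reads were counted by strand. The Igkc count may therefore hold reads of that partner. The kappa V rows, which have their own positions, rose in the same mice, but the part of Gm68839 in the Igkc count was not tested.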

How the data were processed

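RNA-seq libraries of 30 gastrocnemius muscles, 14 LD and 16 ADV, were grouped by their labels, and all sample columns were used. The authors trimmed reads with Trimmomatic, mapped them with STAR (2.7.10a in the submitters' processing notes) to GRCm39, discarded poorly mapped reads with SAMtools and summed exon reads with Homer (4.11). The authors deposited the result, without normalization, as estimated counts for 57186 transcript rows. They are estimates because a mate alone adds a fraction of a read, and 14.8% were not whole. The deposited FPKM values were recomputed from the counts to within 5.0e-04. The authors describe the sequencing as stranded, but the strand setting of the counting is not given in the sources used here. The longest expressed row was kept for the 232 symbols on several rows. Coordinates are those of the deposited rows, and overlaps and sequences were read from GRCm39 with GENCODE vM39.

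Rounded counts were fitted over all 12030 genes with edgeR 4.0.16 in R 4.3.3 (TMM, quasi-likelihood F test). DESeq2 1.42.0, limma 3.58.1 on log2 FPKM, other filters, a replicate block and omission of each mouse were alternatives. On simulated counts with 200 changed genes for this comparison, edgeR called 198 genes, 194 of them changed, and it called 0 genes where none was changed. Those counts were drawn for each gene independently of the others. They therefore do not check calls that rest on a few libraries in which several genes rise together. Permutation tests of correlations were run in Python 3.11.15 by resampling the order of the mice. The genes, the 14 gene lists and the tests were chosen with earlier results of these data known. Named besides the 10 genes were constant genes with a mean of at least 1 read, the most abundant genes and the defining markers of each list, the V segments with most reads, and the 5 genes most like Igkc and Ighm. Ighg3, Iglc3 and Fcgr2b were named after their values were seen. Whether mice sharing a label number in both groups form pairs was checked: the deviations of 6 of 14 pairs correlated above 0.1 (range -0.261 to 0.429), so the numbers were not taken as pairs. The limit of 0.1 was not set against unpaired mice, so the check cannot exclude pairing.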

Additional observations from a re-analysis of the deposited data

How the results depend on the processing

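The number of genes called between the groups (252 of 12030) was 124 with limma on log2(FPKM + 1), and 190 to 302 with 1 mouse left out. Of the 10 genes, 2 were called with all libraries, 1 with a filter of a mean of 1 read, 0 with limma on log2(FPKM + 0.1) or log2(FPKM + 1), 0 without LD mice 23, 30 and 33 (chosen after the data were seen), and 0 to 2 with 1 mouse left out. The value 0 came from leaving out LD mouse 30. Igkc and Ighm stayed below 0 in all 11 other settings, at -2.07 to -0.05 and -0.47 to -0.33. Of the other tested genes of the 14 lists, those outside the 10, 0 were called by edgeR with all libraries and the study's filter, although 16 of 56 had an unadjusted p under 0.05, against 30.1% of all genes. With DESeq2, with a mean of 1 read, with edgeR's own expression filter and without the 3 LD mice 1 list gene was called, and 0 to 2 with 1 mouse left out. The mouse numbers shared by both groups were not taken as pairs, on a check that cannot exclude pairing. With them as a replicate block in the 28 mice concerned, 137 genes and 0 of the 10 were called (Igkc at -1.05 ± 0.60, SE), and the same 28 mice without the block gave 151 and 0 (Igkc at -2.03 ± 0.66). Of 21 pairs of genes, 3 passed by rank, 0 within ADV (3 at an unadjusted permutation p under 0.05), 5 by Pearson r with a pseudocount of 0.1 and 6 on log2 CPM. Of 63 relations with V segments and marker lists, 11 passed, against 2 within ADV, 7 without the 2 mice farthest from the median and 17 by Pearson r with a pseudocount of 1. The causes of these changes were not tested. Depth limited Iglc2, Ighg2b and Cd79a, with medians under 3 reads, to a description.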

Other observations

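Genes around antibody biology outside the constant and variable regions held no call. Among B cell survival and homing signals, Cxcl12, a chemokine that holds plasma cells in their niche, averaged 15.1 ± 2.74 FPKM in LD (SD, n = 14) and 16.0 ± 2.62 in ADV (SD, n = 16), and Tnfsf13 2.23 ± 0.313 and 2.32 ± 0.342. Cxcl13 averaged 1.40 ± 1.64 FPKM in LD and 0.796 ± 0.558 in ADV, and none of these 3 tested genes was called. Fcgrt, the neonatal Fc receptor that recycles IgG, averaged 19.9 ± 2.34 FPKM in LD and 19.99 ± 1.50 in ADV, and the inhibitory receptor Fcgr2b 3.99 ± 1.50 and 3.29 ± 0.787. All 5 tested genes of Fc receptors and immunoglobulin transport had fold changes below 0 (median -0.18 on the log2 scale) and none was called. Their sum was highest in LD mouse 33 (52.5 FPKM) and LD mouse 30 (42.5 FPKM). None of the 12 T cell genes reached the minimum for testing, and their sum was 0.419 to 2.88 FPKM in LD and 0.242 to 1.99 in ADV.

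Among other lists, the 1 tested neutrophil or platelet gene, Pf4, and the 5 tested red blood cell genes (median 0.17) were not called. The 6 adipocyte genes were all above 0 (median 0.65) without a call, led by Lep at 1.57 ± 0.54 (SE). Their sum was highest in ADV mouse 24 and ran from 29.5 to 176 FPKM in LD and 19.8 to 301 in ADV. The medians went the other way, at 111 FPKM in LD and 99.5 in ADV, and 7 of 16 ADV mice exceeded the LD median. Igkc followed this sum as well, with rho 0.590 (permutation p = 0.00070, adjusted p = 0.00661) and r 0.531 (permutation p = 0.00239), and r was 0.593 without LD mice 30 and 33, although the adipocyte sums of LD mice 30, 33 and 23 ranked 9, 15 and 5 of 30. Within LD rho was 0.631 (permutation test, adjusted p = 0.0941) and within ADV 0.441 (permutation test, adjusted p = 0.490). The 8 muscle fiber genes had a median of 0.10 and none was called.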
